A study of Homo sapiens with 9 samples.

Results

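The 45 genes described here encode the machinery of mitosis, and were taken as a fixed list of symbols in SLAM-Seq libraries of MCF10A cells, a non-tumorigenic line of human mammary epithelial cells. All 45 were found among the 26869 genes and unnamed features of the table, in 130 rows that held 58 distinct 3′ intervals. SLAM-Seq gives cells the uridine analogue 4-thiouridine (4sU), alkylates it in the extracted RNA with iodoacetamide and reads the labelled positions as T-to-C conversions, so that mRNA made during the pulse carries a higher conversion rate. All cells had JUN, a subunit of the AP-1 transcription factor, knocked out and restored as a fusion to an auxin-inducible degron (JUN-AID), together with the auxin receptor TIR1, so the cells of every group carried the transgenes. No 4sU was given to the 3 libraries of the first group (no 4sU Ctrl), whose labels do not say whether they received DMSO. The second group (DMSO 4sU, 3 libraries) received the solvent DMSO, for a time that is not stated, and 100 µM 4sU for 1 h. The third (IAA 4sU) received 100 µM of the auxin indole-3-acetic acid (IAA), which leads to degradation of the JUN fusion, for 1 h before the same pulse. Its 3 columns held the same values in every row and were counted as 1 library, so 7 distinct libraries remained.

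Each library held between 18997637 and 24014195 reads, recovered from the deposited values. Levels are in CPM, the reads in a gene's main 3′ interval scaled to the size of the library, and the conversion rate is the percentage of T positions read as C. Basal epithelial markers, 9 of 9, were above 1 CPM in every library and summed to 1668 to 2116 CPM. KRT5 was the highest of them at 519 to 709 CPM. The basal keratin KRT14 was the lowest at 3.63 to 10.6 CPM, below the luminal keratin KRT18 in every library. Luminal markers summed to 117 to 158 CPM. Of these, 4 of 8 reached 1 CPM, with KRT18 highest at 64.4 to 99.7 CPM, and ELF5 was at 0 throughout. Fibroblast markers summed to 9.05 to 14.5 CPM, with COL1A1 at 3.21 to 9.82 CPM, DCN at 3.66 to 7.29 CPM and COL1A2 at 0. Endothelial markers summed to 0.223 to 1.36 CPM, with PECAM1 at 0.179 to 1.08 CPM and CDH5 and VWF at 0. Leukocyte markers summed to 2.16 to 8.13 CPM with PTPRC and CD3E at 0. CD68, at 1.68 to 7.93 CPM, was the only leukocyte marker above 1 CPM. JUN itself had 30.2, 20.3 and 25.6 CPM in the DMSO libraries and 62.9 CPM in the IAA library. Degradation acts on the protein, so these reads do not check the labels.

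Entry into mitosis is driven by CDK1 bound to cyclin A or B, and exit by the anaphase-promoting complex (APC/C), which marks the cyclins and securin for destruction. Between these switches the kinetochore couples chromosomes to spindle microtubules, the spindle checkpoint delays anaphase until all are attached, and the central spindle directs cytokinesis. Many genes of this machinery are transcribed together before division, through a promoter element called CHR, bound by the MuvB complex with MYBL2 or FOXM1, and through CCAAT boxes bound by NF-Y.

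Because many genes of mitosis are known to be regulated this way, the promoters of the members were read first. RefSeq promoter windows of 300 bases (GRCh38.p14, lying mostly before the annotated start) were held for 38 of the 45 genes in 50 entries, since a gene can have several starts. The CHR letters TTTGAA or TTTAAA, searched on both strands, were present in 37 of the 50 entries (74.0%), those of 33 genes, against 24.0% of all 35116 entries and 7 of 49 entries (14.3%) of DNA replication and S-phase genes. TTTGAA alone was in 60.0% of the members' entries, 15.2% of all entries and 4.08% of the S-phase entries. The 5 letters CCAAT, searched on both strands, were in 72.0% of the members' entries, against 34.6% of all and 61.2% of the S-phase entries. CHR letters and CCAAT stood together in 56.0% of the members' entries and 9.27% of all. The AP-1 letters TGAGTCA or TGACTCA were in none of the 50 entries and in 4.95% of all. Entries of one gene can overlap, and a match describes the letters only. The windows below carry the CHR letters, in capitals, on the coding strand between positions -41 and -18 of an annotated start. They come from genes of very different function and are shown for that reason. TTTAAA reads the same on both strands. From another annotated start, the same letters lie at 44 in CDC25C and at -84 in PTTG1. Positions count from the start, and the base before it is -1.
CCNB2 (TTTGAA at -29, chr15:59105106-59105133, plus strand): gcgacgcggtaTTTGAAtcctggaacaa
CDC25C (at -30, chr5:138331818-138331845, minus strand): ctggcggaaggTTTGAAtggtcaacgcc
PLK1 (at -29, chr16:23678849-23678876, plus strand): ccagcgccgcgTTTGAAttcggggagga
BUB1B (at -23, chr15:40161035-40161062, plus strand): ggaccgttaaaTTTGAAacttggcggct
CDCA8 (at -23, chr1:37692482-37692509, plus strand): tgactgtggagTTTGAAttgggtggcgg
CENPA (at -18, chr2:26786027-26786054, plus strand): ggagcgagcgaTTTGAAcgcgagcggcg
KIF4A (at -34, chrX:70290059-70290086, plus strand): tccgggacggaTTTGAAacttggcggtt
ANLN (at -20, chr7:36389831-36389858, plus strand): tgaaattcaaaTTTGAAcggctgcagag
CCNB1 (TTTAAA at -30, chr5:69167109-69167136, plus strand): gcagtgcggggTTTAAAtctgaggctag
PTTG1 (TTTAAA at -29, chr5:160421815-160421842, plus strand): gcgagttgtggTTTAAAccaggagtgcg
KIF20A (TTTAAA at -41, chr5:138179060-138179087, plus strand): gcagcgcgtaaTTTAAAatattgtatct

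The mitosis genes were all expressed. Between 46 and 3283 reads fell in a member's main interval per library, all 45 averaged at least 1 CPM over the 6 DMSO and no 4sU libraries, and 39 averaged at least 10 CPM. The 6 below 10 CPM were CDC25C, PLK4, BUB1, INCENP, CENPA and NDC80. Intervals were 64 to 2532 bases long with a median of 684, and 36 members had 1 distinct interval. The reads come from 3′ ends, and levels are compared below between libraries, not between genes.

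The summed level of the 45 genes differed more between replicates than between treatments. Without 4sU it was 1277, 1720 and 1502 CPM in replicates 1, 2 and 3. With DMSO and 4sU it was 1255, 1793 and 1533 CPM, and in the IAA library 1347 CPM. Replicate 1 was the lowest and replicate 2 the highest in both groups, and the IAA library lay between replicates 1 and 3. A bulk library cannot tell a smaller share of dividing cells from less of these mRNAs per cell.

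**Figure D1:**
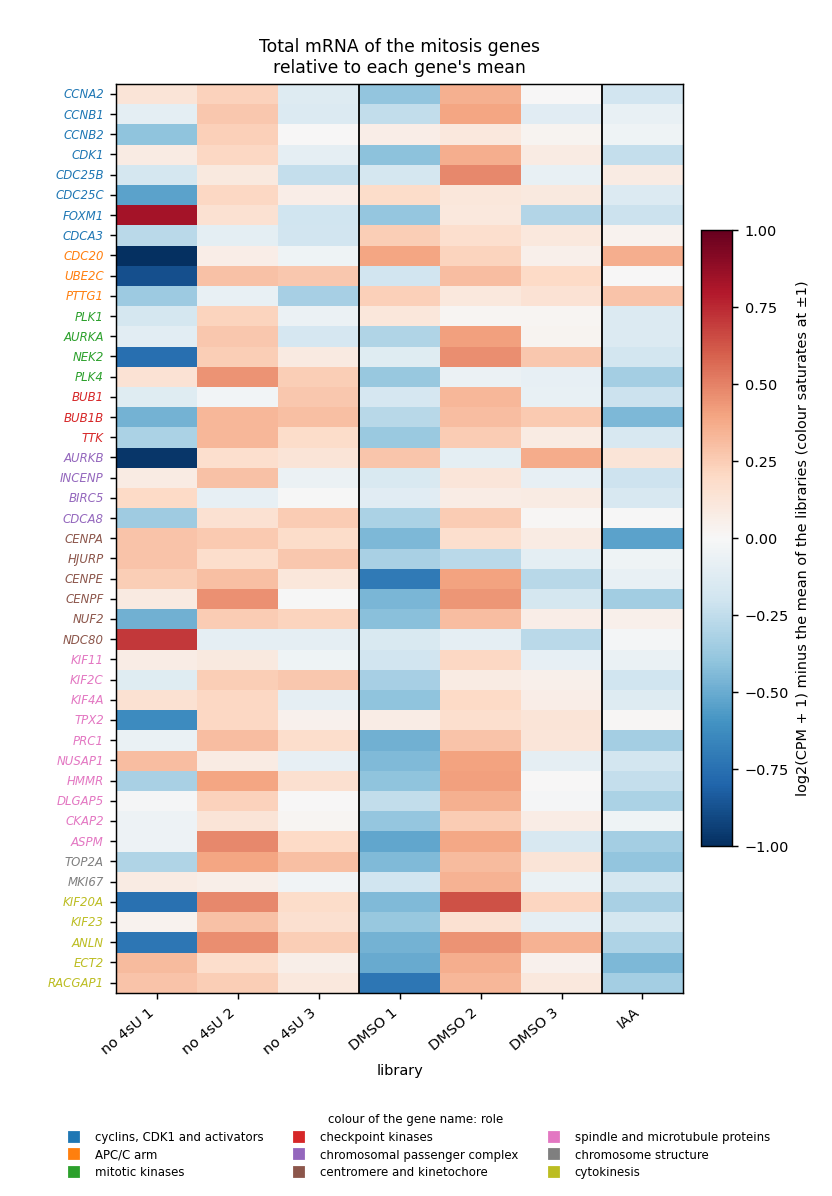
Total mRNA of the 45 mitosis genes (rows, coloured by role) in the 7 distinct libraries (columns), as log2(CPM + 1) minus the gene's mean over the libraries, with blue below and red above the mean. The DMSO 1 column is mostly blue and the DMSO 2 column mostly red, as the summed levels of 1255 and 1793 CPM show, and the IAA column is mostly pale blue.

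The pattern was seen gene by gene. After TMM scaling, which sets a common level for the bulk of genes, replicate 1 had the lowest of 3 values in both groups for 30 of the 45 members (66.7%), while 26.1% of the 11387 genes tested showed this. It had the highest value in both groups for 0 members, and for 21.6% of all genes. The median difference of replicate 1 from the mean of the other replicates was -0.33 on the log2 scale without 4sU and -0.46 with DMSO and 4sU for the members, and -0.05 and -0.01 for all genes. Scaling matters here. On the deposited CPM without TMM, 19 members (42.2%) were lowest in replicate 1 in both groups against 19.6% of all genes, and 0 were highest. These counts are a description of a pattern noticed in the data, with no test.

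ANLN, which cross-links actin and septins in the cleavage furrow (NM_001284301, GRCh37 chr7:36429430-36493400, plus strand), showed it most strongly together with KIF20A. ANLN had 35.5, 82.2 and 70.3 CPM without 4sU, and 42.4, 81.4 and 75.5 CPM with DMSO and 4sU. The IAA library had 47.7 CPM, next to the replicate 1 values. KIF20A, a kinesin that brings the passenger complex to the central spindle, had 30.8, 73.4 and 59.5 CPM without 4sU. With DMSO and 4sU it had 38.2, 82.0 and 60.7 CPM, and 41.6 CPM with IAA. For both genes every replicate 1 value was below every replicate 2 and 3 value, whatever the treatment.

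TOP2A, the topoisomerase that untangles sister chromatids (NM_001067, chr17:38544777-38574148, minus strand), had 72.6, 119 and 111 CPM without 4sU, 66.0, 112 and 98.2 CPM with DMSO and 4sU, and 68.4 CPM with IAA. BUB1B, a checkpoint kinase relative that holds back the APC/C, followed the same order with 10.8, 19.5 and 19.1 CPM, then 12.4, 19.2 and 18.5 CPM, and 10.9 CPM with IAA. In each, the 3 lowest libraries were the replicate 1 libraries and the IAA library. All 3 checkpoint kinases (BUB1, BUB1B and TTK) and both chromosome structure genes (TOP2A and MKI67) were lowest in replicate 1 in both groups, as were 8 of 10 spindle and microtubule genes and 5 of 6 centromere and kinetochore genes. The count was 3 of 4 for the mitotic kinases, 3 of 5 for cytokinesis, 2 of 4 for the passenger complex, 3 of 8 for the cyclins, CDK1 and activators, and 1 of 3 for the APC/C arm.

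Of the other 15 members most were lowest in replicate 1 in one group and not in the other. CDC20, the activator that gives the APC/C its mitotic targets, had 15.9, 35.9 and 33.2 CPM without 4sU but 45.5, 40.2 and 35.5 CPM with DMSO and 4sU. AURKB, the kinase of the passenger complex (NM_001256834, chr17:8108051-8113918, minus strand), had 24.7, 55.5 and 54.0 CPM without 4sU and 60.1, 46.1 and 64.0 CPM with DMSO and 4sU. Replicate 1 was thus the low library without 4sU and not with it. NDC80 was lowest in replicate 1 in neither group. FOXM1, the transcription factor of the late mitotic programme, had the opposite feature to CDC20, with 24.1 CPM in replicate 1 without 4sU against 14.7 and 11.3 CPM in the others. Across the 45 members the deviations of replicate 1 in the 2 groups had a Pearson correlation of 0.01, and across all genes of 0.40, both given as a description over genes that share libraries.

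Genes related to the members but not among them, and other groups, were read the same way, and the share of all genes stays 26.1%. Replicate 1 was lowest in both groups for 15 of 28 other kinetochore and checkpoint genes, 11 of 24 other spindle and cytokinesis genes, 11 of 20 genes of condensin, cohesin and separase, and 8 of 16 genes of MuvB, MYBL2, NF-Y and the pocket proteins. For CDK1 inhibitors and mitotic entry regulators it was 5 of 13, for APC/C subunits and regulators 4 of 15, for the DNA replication and S-phase genes 12 of 43, and for immediate early genes 3 of 18. Cytosolic ribosomal proteins were lowest in 0 of 33 and highest in 24 of 33. Their summed level was 13702, 9175 and 8574 CPM without 4sU, 17023, 11383 and 11918 CPM with DMSO and 4sU, and 18414 CPM with IAA, high in the libraries where the mitosis genes were low. Reads of ribosomal protein genes can be shared with their pseudogenes. The part of this difference in the members' values was not tested.

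Whether the level of the mitosis genes differed with the labelling was asked by comparing DMSO with 4sU against no 4sU. There were 3 libraries each, compared on log2(CPM + 1) with limma across all genes. The labels do not say whether the no 4sU cells received DMSO, so 4sU and DMSO cannot be told apart here. None of the 45 members was called at an adjusted p under 0.05, either higher or lower, while 1.58% of the 11387 genes tested were lower and 0 higher (180 genes). At an unadjusted p under 0.05 there were 3 members by limma, 3 by edgeR and 4 by DESeq2, against 10%, 10.3% and 10.5% of all genes. After adjustment 0 members were called by edgeR or DESeq2. Estimates were above 0 for 15 members and below 0 for 30, with a median of -0.09 against 0.04 for all genes. The sign of this median rested on 1 library, since it was 0.07 without DMSO replicate 1, and it was -0.23 without DMSO replicate 2. Standard errors ran from 0.15 to 0.36, so a change of the size of the estimates could not be told from none.

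The smallest p among the members belonged to HJURP, the chaperone that loads CENPA at centromeres. It had 20.6, 19.1 and 20.5 CPM without 4sU and 13.2, 13.7 and 15.6 CPM with it. The groups did not overlap, and the log2 difference was -0.51 ± 0.15 (SE, n = 3 and 3, limma, unadjusted p = 0.00807, adjusted p = 0.211). PLK4, the kinase that starts centriole duplication, had 3.61, 4.69 and 3.95 CPM against 2.21, 3.0 and 2.94 CPM. Its difference of -0.48 ± 0.20 had an adjusted p of 0.426 by limma. FOXM1, with 9.77, 14.2 and 10.5 CPM in the DMSO libraries, had an estimate of -0.49 ± 0.25 that rests on the 1 high library without 4sU.

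The highest estimates came from the APC/C arm. CDC20 stood at 0.53 ± 0.30 (adjusted p = 0.616, limma), with 1 low library without 4sU. PTTG1, the securin that keeps separase inactive (NM_001282382, chr5:159848862-159855746, plus strand), had 98.2, 120.2 and 100.2 CPM without 4sU and 150.0, 137 and 140.1 CPM with it. All 3 DMSO libraries were above all 3 without 4sU, and the difference of 0.38 ± 0.16 did not pass (adjusted p = 0.425, limma). AURKB had 0.37 ± 0.31. In all, 2 members (PTTG1 and CDCA3) lay above without overlap and 3 (HJURP, PLK4 and CENPA) below, where 10.4% and 8.94% of all genes did so.

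Related genes gave few calls. Among the lists of mitotic regulators that are not members, 1 of 15 APC/C genes and 1 of 13 CDK1 inhibitors and entry regulators were lower and 0 were higher, and the other kinetochore (28), spindle (24), condensin and cohesin (20), MuvB and NF-Y (16) and S-phase (43) genes tested had 0 calls. The first was FBXO5, the APC/C inhibitor EMI1, at 6.77, 10.3 and 13.3 CPM without 4sU and 0.564, 2.58 and 3.34 CPM with it, a log2 difference of -1.93 ± 0.39 (adjusted p = 0.0424, limma). The other was CDKN1B, the CDK inhibitor p27, at 16.0, 17.2 and 16.4 CPM against 7.66, 8.0 and 6.72 CPM, a difference of -1.09 ± 0.16 (adjusted p = 0.00951, limma). Immediate early genes, whose mRNAs are short-lived, were lower in 10 of 18.

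**Figure D2:**
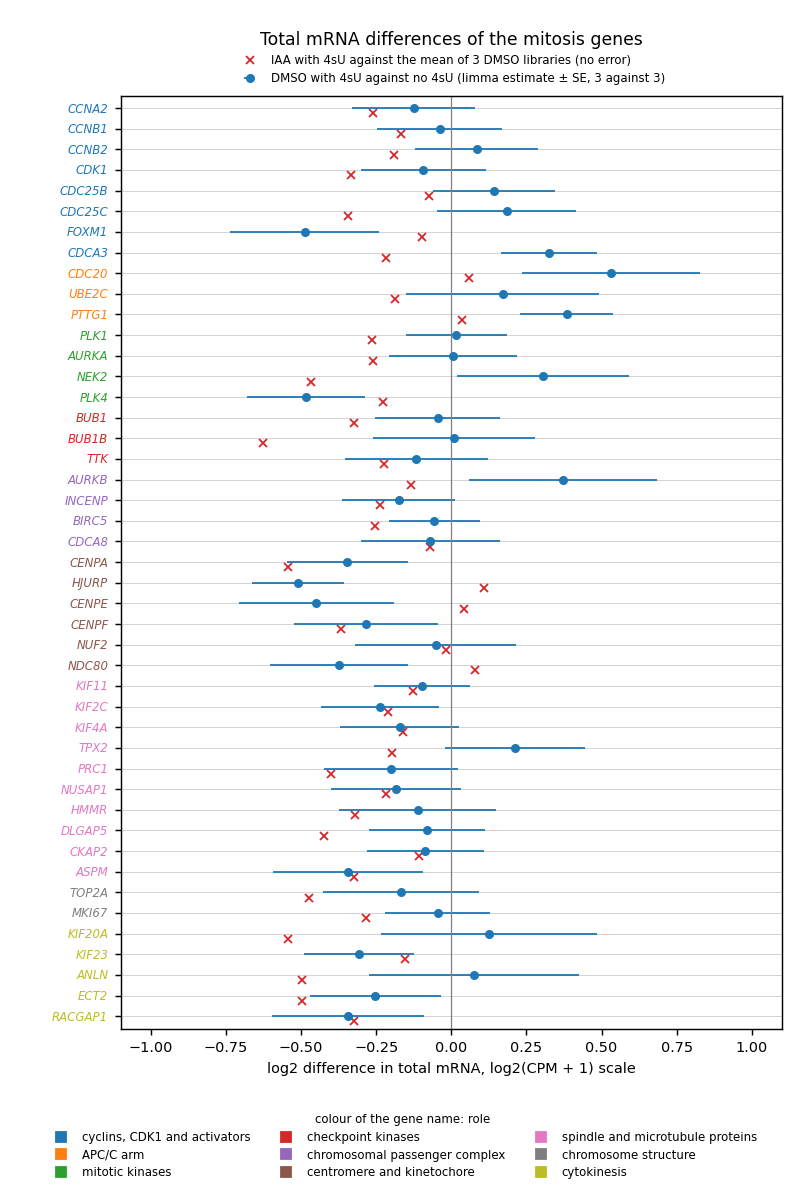
Blue points give the limma estimate of the log2 difference in total mRNA between DMSO with 4sU and no 4sU for each mitosis gene, with bars of 1 standard error (3 against 3 libraries), and red crosses the IAA library minus the mean of the 3 DMSO libraries, which has no error. Blue points run from -0.51 (HJURP) to 0.53 (CDC20), and 40 of 45 crosses lie below 0.

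Newly made mRNA was read from the conversion rate. The median rate of the 39 members with at least 10 CPM was 0.0624%, 0.0626% and 0.0644% in the 3 libraries without 4sU, the background of this measure. With DMSO and 4sU it was 0.272%, 0.155% and 0.174%, and with IAA and 4sU 0.238%. For all 6855 genes tested the medians were 0.0574%, 0.0580% and 0.0599% without 4sU, 0.235%, 0.181% and 0.177% with DMSO and 4sU, and 0.218% with IAA. Replicate 1 had the highest of the 3 DMSO rates in 28 of the 39 members and the lowest in 5, against 56.5% and 17.5% of all genes. Relative to the median rate of each library, replicate 1 was above the mean of the other labelled libraries in 22 members and below it in 17. The table gives no number of T positions behind a rate, so no interval was set on a single value.

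The rate was higher with 4sU for 27 of 39 members (69.2%) and lower for 0, by limma on log2(rate + 0.0005) at an adjusted p under 0.05. Of all genes 66.9% were higher and 0.0438% lower, so the share of members called was close to the background. Their median log2 change was 1.02 and that of all genes 1.12. The 3 DMSO libraries lay above all 3 without 4sU in 32 of the 39 members and in 73.1% of all genes, and below all 3 in 0 members and in 0.0584% of all genes. When each library was centred on its median rate, the number of members called fell to 1 and their median change was -0.17.

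**Figure D3:**
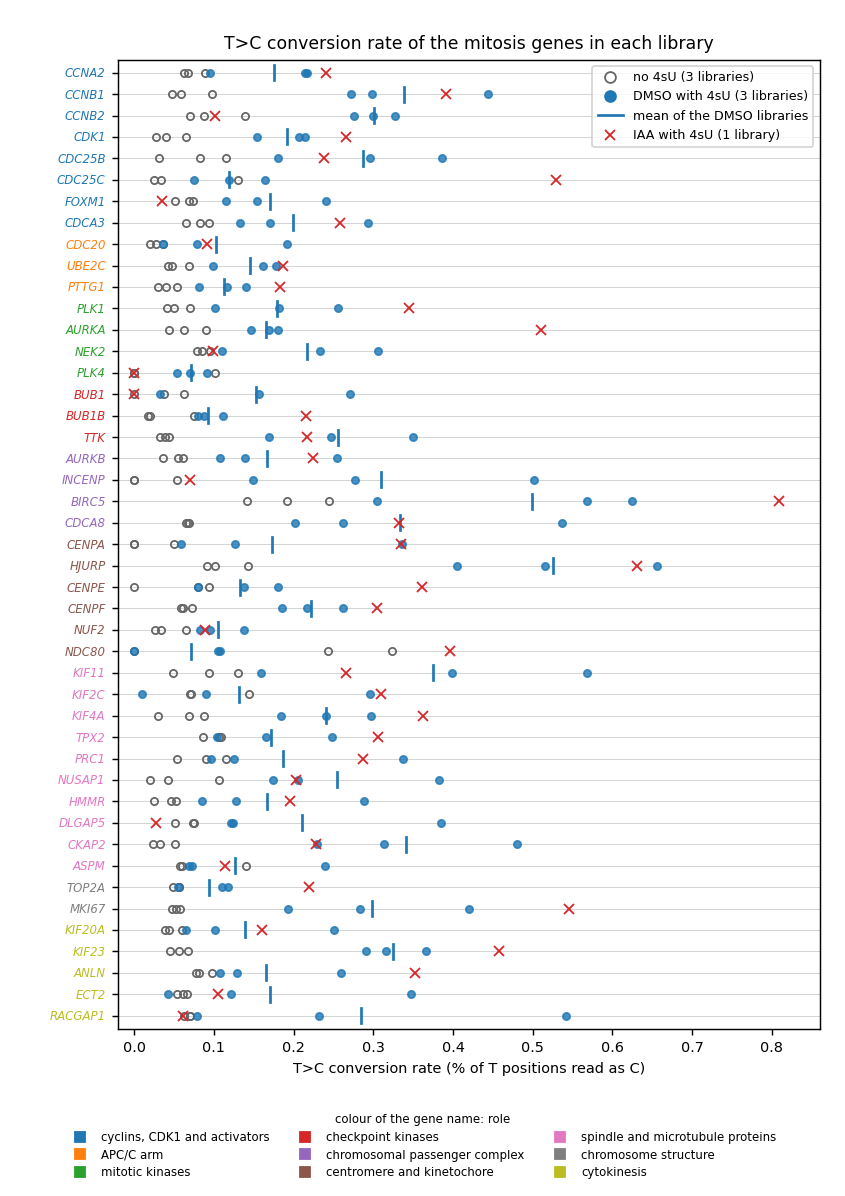
T>C conversion rate, in percent of T positions read as C, of each of the 45 mitosis genes, with open circles for the 3 libraries without 4sU, blue points for the 3 DMSO libraries with 4sU, a blue bar for their mean and a red cross for the IAA library. HJURP and BIRC5 have the highest DMSO means, 0.526% and 0.499%, and in most genes the DMSO points spread over a wide range.

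Among the cyclins, CDK1 and their activators 7 of the 7 tested genes had a higher rate with 4sU. CDK1 (NM_001786, chr10:62538089-62554610, plus strand) had 76.4, 83.7 and 67.7 CPM without 4sU, 54.1, 93.1 and 76.6 CPM with DMSO and 4sU and 61.1 CPM with IAA. Its rate was 0.0648%, 0.0275% and 0.0401% without 4sU and 0.215%, 0.155% and 0.207% with it, a log2 change of 1.37 ± 0.25 (SE, n = 3 and 3, adjusted p = 0.00277, limma). The IAA library had 0.266%. CCNB1, the main mitotic cyclin, rose to 0.338% ± 0.0928 (SD, n = 3) from 0.0676% ± 0.0265 (SD, n = 3). FOXM1 had 0.0514%, 0.0689% and 0.0742% without 4sU and 0.241%, 0.115% and 0.154% with it (adjusted p = 0.0216, limma), and 0.0354% with IAA. The FOXM1 value with IAA was therefore below all of the unlabelled libraries. CDC25C was under 10 CPM and was not tested.

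In the APC/C arm 2 of 3 genes passed. PTTG1 rose from 0.0299%, 0.0535% and 0.0393% to 0.14%, 0.0811% and 0.117% (adjusted p = 0.0193, limma) and had 0.182% with IAA. UBE2C, the ubiquitin-conjugating enzyme of the APC/C, rose to 0.146% ± 0.0418 (SD, n = 3) from 0.0531% ± 0.0138. CDC20, with one of the lowest rates of the members, had 0.0201%, 0.0274% and 0.0356% without 4sU and 0.0785%, 0.0365% and 0.191% with it, which did not pass (adjusted p = 0.0867, limma), and 0.0914% with IAA.

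Of the mitotic kinases 3 of 3 tested passed. AURKA, the kinase of spindle poles (NM_003600, chr20:54944445-54967393, minus strand), had 37.8, 49.2 and 36.2 CPM without 4sU, 32.8, 54.3 and 41.5 CPM with DMSO and 4sU and 36.9 CPM with IAA. Its rate was 0.0624%, 0.0897% and 0.0431% without 4sU and 0.169%, 0.181% and 0.147% with it, one of the tightest groups of labelled values. The change was 0.92 ± 0.25 (adjusted p = 0.0125, limma). PLK1, which acts at centrosomes and kinetochores, and NEK2, which splits centrosomes, passed as well, with means of 0.180% and 0.217%. PLK4 had rates of 0, 0 and 0.101% without 4sU and 0.0912%, 0.0532% and 0.0693% with it, and 0 with IAA, at 46 reads in the IAA library.

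The checkpoint kinases gave 1 call of 2 tested. TTK, the kinase that starts checkpoint signalling at kinetochores (NM_001166691, chr6:80713604-80752244, plus strand), had 16.3, 26.1 and 23.4 CPM without 4sU, 15.6, 24.7 and 21.7 CPM with DMSO and 4sU and 18.3 CPM with IAA. The TTK rate went from 0.0390%, 0.0325% and 0.0433% to 0.35%, 0.247% and 0.169% (adjusted p = 0.00167, limma), and was 0.217% with IAA. BUB1B, among the lowest rates, had 0.0178%, 0.0750% and 0.0203% against 0.112%, 0.0874% and 0.0800%, and its adjusted p was 0.0588 although the groups did not overlap. The IAA library had 0.215%.

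In the chromosomal passenger complex, which corrects faulty attachments, 3 of 3 tested genes passed. AURKB had rates of 0.0547%, 0.0361% and 0.0617% without 4sU and 0.254%, 0.139% and 0.108% with it, and 0.224% with IAA. BIRC5, the survivin subunit, had the highest rates without 4sU of the members over 10 CPM, at 0.244%, 0.191% and 0.142%. With DMSO and 4sU it had 0.568%, 0.304% and 0.625%, and 0.809% with IAA. Its levels were 25.6, 20.9 and 22.1 CPM without 4sU, 20.5, 23.4 and 23.6 CPM with DMSO and 4sU and 19.8 CPM with IAA. CDCA8, the borealin subunit, reached 0.333% ± 0.179 (SD, n = 3).

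Of the centromere and kinetochore genes 3 of 4 tested passed, namely HJURP, CENPF and NUF2. HJURP rose from 0.143%, 0.0916% and 0.101% to 0.405%, 0.515% and 0.656%, the highest mean of all members, with a log2 change of 1.82 ± 0.28 (adjusted p = 0.00146, limma). With IAA it had 0.631% at 16.3 CPM. CENPF, a large kinetochore and matrix protein (NM_016343, chr1:214776528-214837917, plus strand), had 53.9, 69.7 and 50.5 CPM without 4sU, 36.5, 69.0 and 44.6 CPM with DMSO and 4sU and 39.5 CPM with IAA. The CENPF rate rose from 0.0719%, 0.0613% and 0.0593% to 0.216%, 0.186% and 0.262%, and was 0.304% with IAA. CENPE, the kinesin of the outer kinetochore, had 16.5, 17.2 and 14.9 CPM without 4sU, 8.03, 18.5 and 11.2 CPM with DMSO and 4sU and 13.0 CPM with IAA. Its rates of 0.0801%, 0.0937% and 0 overlapped with 0.181%, 0.0804% and 0.138% (adjusted p = 0.106, limma), and the IAA library had 0.361%.

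CENPA, the histone variant that marks centromeres, and NDC80, the microtubule-binding subunit of the outer kinetochore, were too low for the test. CENPA had 8.55, 8.40 and 7.90 CPM without 4sU, 4.74, 7.79 and 7.27 CPM with DMSO and 4sU and 4.39 CPM with IAA. Its rates were 0.0501%, 0 and 0, then 0.126%, 0.336% and 0.0586%, and 0.334% with IAA. NDC80 had 6.92, 3.57 and 3.58 CPM, then 3.38, 3.58 and 3.04 CPM, and 3.79 CPM with IAA, and its interval of 64 bases was the shortest. The NDC80 rates were 0.243%, 0.323% and 0 without 4sU and 0.105%, 0.108% and 0 with it, so unlabelled libraries were not lower, and 0.396% with IAA.

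Among the 10 spindle and microtubule genes 6 passed. CKAP2, which stabilises spindle microtubules, had the largest change of the 39 members tested, from 0.0326%, 0.0237% and 0.0507% to 0.481%, 0.229% and 0.314%, or 2.15 ± 0.31 (adjusted p = 0.00109, limma). With IAA it had 0.227%, and its levels were 20.5, 23.4 and 21.5 CPM, then 16.1, 25.6 and 22.5 CPM, and 20.6 CPM with IAA. KIF11, the kinesin that pushes spindle poles apart, rose from 0.0938%, 0.0485% and 0.13% to 0.569%, 0.159% and 0.398%, and had 0.266% with IAA. Its levels were nearly flat, at 35.4, 36.1 and 32.7 CPM without 4sU, 29.5, 39.1 and 31.9 CPM with DMSO and 4sU and 32.2 CPM with IAA. DLGAP5, a spindle assembly factor, had 0.0517%, 0.0747% and 0.0739% without 4sU and 0.385%, 0.124% and 0.121% with it, passed at an adjusted p of 0.0479 (limma), and had 0.0273% with IAA. Its levels were 19.7, 23.5 and 19.9 CPM, 16.6, 25.7 and 19.7 CPM, and 15.8 CPM.

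Of the spindle genes that did not pass, KIF2C and ASPM had the smallest changes of the 39 members tested. KIF2C, a microtubule-depolymerising kinesin, had 0.144%, 0.0695% and 0.0706% without 4sU and 0.295%, 0.00931% and 0.0907% with it, a change of 0.02 ± 0.59. With IAA it had 0.309%, and its levels were 17.1, 22.3 and 22.6 CPM, 14.6, 19.8 and 19.3 CPM, and 16.1 CPM. ASPM, which focuses spindle poles, had 0.0600%, 0.0575% and 0.141% against 0.24%, 0.0730% and 0.0685%, and 0.114% with IAA, at 20.0, 29.4 and 24.0 CPM, 14.2, 27.4 and 18.5 CPM, and 16.2 CPM. TPX2, the activator of AURKA (NM_012112, chr20:30327074-30389608, plus strand), was the most abundant of the group at 31.9, 57.6 and 51.3 CPM without 4sU, 52.6, 56.3 and 54.5 CPM with DMSO and 4sU and 50.3 CPM with IAA. The TPX2 rates of 0.107%, 0.0858% and 0.109% overlapped with 0.248%, 0.165% and 0.103%, and the IAA library had 0.306%. PRC1 did not pass either (adjusted p = 0.156, limma).

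For chromosome structure, MKI67, the Ki-67 protein that coats mitotic chromosomes, rose to 0.299% ± 0.114 (SD, n = 3) from 0.0525% ± 0.00519. TOP2A did not pass, with 0.0559%, 0.0486% and 0.0567% against 0.111%, 0.0548% and 0.117% (adjusted p = 0.15, limma), although its 1001-base interval held 1371 reads in the IAA library, where the rate was 0.219%. Of the cytokinesis genes 1 of 5 passed. It was KIF23, the motor subunit of centralspindlin, at 0.0555%, 0.0680% and 0.0446% without 4sU and 0.366%, 0.291% and 0.316% with it, a change of 1.82 ± 0.24 (adjusted p = 0.000819, limma), the smallest p of the 39 members tested. KIF23 had 44.1, 52.9 and 48.2 CPM, then 32.8, 47.9 and 40.3 CPM, and 37.9 CPM and 0.458% with IAA.

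The other 4 cytokinesis genes did not pass. RACGAP1, the partner of KIF23, had 0.0706%, 0.0629% and 0.0703% against 0.542%, 0.0793% and 0.232% (adjusted p = 0.0580, limma), and 0.0607% with IAA, at 21.0, 20.3 and 18.3 CPM, 9.91, 21.6 and 18.3 CPM, and 13.2 CPM. ANLN had 0.0971%, 0.0811% and 0.0777% against 0.259%, 0.129% and 0.108% (adjusted p = 0.105, limma), and 0.353% with IAA. KIF20A had 0.0598%, 0.0441% and 0.0389% against 0.251%, 0.102% and 0.0653%, and 0.160% with IAA. ECT2, the exchange factor that activates RhoA at the equator, had a mean of 0.17% ± 0.158 (SD, n = 3). In all 4 the highest of the 3 DMSO rates was that of replicate 1, where the levels of these genes were lowest of the 3. KIF23, which passed, showed the same, with DMSO rates of 0.366%, 0.291% and 0.316% at 32.8, 47.9 and 40.3 CPM. Replicate 1 had the highest DMSO rate in 56.5% of all genes, so this feature did not set the 4 genes apart.

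The lists beside the members passed in shares of 27.8% (5 of 18, other kinetochore and checkpoint genes), 50.0% (10 of 20, other spindle and cytokinesis genes), 73.3% (11 of 15, condensin, cohesin and separase), 50.0% (5 of 10, APC/C subunits), 63.6% (7 of 11, CDK1 inhibitors and entry regulators) and 40% (4 of 10, MuvB, MYBL2, NF-Y and pocket proteins). Of the S-phase genes 15 of 29 passed (51.7%), of the ribosomal proteins 19 of 28 (67.9%) and of the immediate early genes 14 of 14. CDKN1B reached 2.75% and CDT1, a licensing factor of replication origins, 1.11%, and both were above every member in the mean DMSO rate. Immediate early genes had a median of 3.14%. The mitosis genes thus sat at 0.186% in the median, where all genes had 0.205% and the S-phase genes 0.210%. Across the 39 members the mean DMSO rate and the mean CPM had a Spearman rho of -0.25, a description over genes of the same libraries.

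The effect of JUN degradation could be read only as 1 library beside 3, with no test. In total mRNA 0 of the 45 members were outside. A gene was counted as outside when its IAA value exceeded or fell short of every DMSO value and differed from their mean by 1 log2 unit or more, which 0.142% of all genes (16) did. The members' median difference was -0.23 on the log2 scale, against 0.00 for all genes and 0.01 for the S-phase genes. The IAA value was below all 3 DMSO libraries for 16 members (35.6%), above for 0 and within for 29. Of all genes 20.6% lay below and 20.6% above. Without TMM the median was -0.17, where all genes had 0.07. The IAA value was then below the 3 DMSO libraries in 12 members (26.7%) and above in 3 (6.67%). Of all genes 11.5% lay below and 32.3% above.

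The difference depended on which DMSO library stood as the reference. Against DMSO replicate 1 the members' median was 0.06, against replicate 2 it was -0.48, and against replicate 3 it was -0.26. The IAA value was within 0.2 log2 units of replicate 1 in 33 members, of replicate 2 in 5 and of replicate 3 in 16, where 66.2%, 38.4% and 47.4% of all genes were. The members' share near replicate 1 was thus close to that of all genes. The IAA value was below both replicates 2 and 3 in 38 members (84.4%), against 38.4% of all genes. Taking each labelled library in turn against the other 3 gave medians of -0.31, 0.44 and 0.09 for the DMSO libraries and -0.23 for IAA. The IAA library was thus no further from the rest than DMSO replicates 1 and 2 were. Its ribosomal protein sum of 18414 CPM was also nearest to that of DMSO replicate 1.

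**Figure D4:**
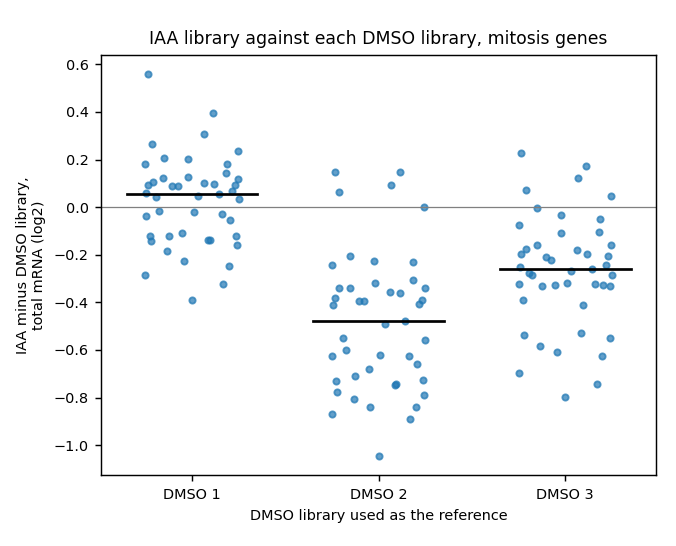
Log2 difference in total mRNA between the IAA library and each of the 3 DMSO libraries, with 1 point per mitosis gene (45) and a black bar for the median. The medians are 0.06, -0.48 and -0.26, so the points centre near 0 only against DMSO replicate 1.

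The lowest values against the DMSO mean were those of BUB1B (-0.63), CENPA (-0.54) and KIF20A (-0.54). BUB1B at 10.9 CPM (95% Wilson interval 9.57 to 12.5, counting error only) was below all DMSO values, of which replicate 1 had 12.4 CPM. CENPA at 4.39 CPM (3.56 to 5.40) was next to replicate 1 at 4.74 CPM, and KIF20A lay within the DMSO range. The highest were HJURP (0.11), NDC80 (0.08) and CDC20 (0.06), all in the order of the spread between DMSO libraries. By role the medians were -0.50 for cytokinesis, -0.38 for chromosome structure, -0.32 for checkpoint kinases, -0.26 for mitotic kinases, -0.22 for spindle genes, -0.20 for the cyclins and CDK1, -0.19 for the passenger complex, 0.01 for the centromere and kinetochore genes and 0.03 for the APC/C arm.

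Conversion rates were first set relative to the median rate of their own library. The members' median difference of IAA from DMSO was 0.18. Of the 39 members 14 lay above the 3 DMSO libraries (35.9%), 7 below (17.9%) and 18 within. Of all genes 23.5% lay above and 25.7% below. The IAA rate was below both DMSO replicates 2 and 3 in 9 members (23.1%), and in 35% of all genes. Outside, by the rule given for total mRNA, were 7 members (17.9%), against 8.7% of all genes. DMSO replicates 1, 2 and 3 treated the same way gave 4, 2 and 1 members, where 9.69%, 10.4% and 8.23% of all genes were outside. With an offset of 0.002 in place of 0.0005 no member was outside, and the count is read with that limit.

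AURKA had the largest difference of the members outside on the high side, with 0.510% in the IAA library against 0.147% to 0.181% with DMSO, a difference of 1.26 log2 units at 741 reads. KIF2C (1.21) and CENPE (1.08) were the other members outside on the high side. Outside on the low side were DLGAP5 (-1.73), FOXM1 (-1.45), RACGAP1 (-1.45) and CCNB2 (-1.33), whose rate of 0.102% with IAA compared with 0.328%, 0.276% and 0.299%. The IAA rates of DLGAP5, FOXM1 and RACGAP1 were below all 3 of their own values without 4sU, at 317, 224 and 265 reads. The members outside came from 5 roles and lay on both sides. With 1 IAA library these differences have no replicate check.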

How the data were processed

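Total RNA from 9 samples of MCF10A cells was alkylated and sequenced by the authors as QuantSeq 3′-end libraries and run through a Nextflow SLAM-Seq pipeline, and hg19 is the build in the submitters' processing notes. The authors deposited 1 table of 56868 rows. Its conversion rate is a fraction of T positions read as C, without background subtraction. Its CPM column, treated as a signal because rows that share an interval repeat their reads, is the deposited number of reads scaled to the library. The values were whole multiples of 1 read in 100% of non-zero cases (tolerance 0.001), which gave the reads and the library totals.

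RefSeq identifiers were matched to symbols through a RefSeq table of GRCh38.p14, used for names only (97.7% of rows). Gene coordinates in GRCh37 are those of GENCODE v44lift37. Each gene is represented by the interval with most reads. An earlier design summed reads and averaged rates over intervals. It was exchanged after the table was seen, because intervals without reads carry rates of 0 and overlapping ones repeat reads, and became the alternative. The members and lists were chosen with earlier results of these data known. The named genes were the most abundant of each role and the 3 highest and lowest in rate and in each difference. CCNB1, UBE2C, CDCA8, MKI67, ECT2, PLK1, NEK2, CCNB2 and PRC1 were added after their values were seen.

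DMSO with 4sU was compared with no 4sU by limma 3.58.1 (trend, robust) in R 4.3.3 on log2(CPM + 1) with TMM library sizes for genes averaging at least 1 CPM, and on log2(rate + 0.0005) for genes averaging at least 10 CPM, with Benjamini-Hochberg adjustment over all genes tested. A fold change on a scale with an added constant understates that of low values. edgeR 4.0.16 and DESeq2 1.42.0 were run on the recovered reads as alternatives, with other filters, constants and scalings and with each library left out. The fits were tested on simulated data with known changes and an assumed spread. There, with 200 genes changed, limma recovered 99.5% of 3-fold changes in total mRNA and 64.5% of 4-fold changes in rate. In the data 4585 of 6855 genes were higher in rate, so the 64.5% does not carry over to them. The members' estimates in total mRNA reached only 0.53 log2 units, so the 99.5% says nothing about changes of that size. A gene that did not pass can still have changed. The 3 IAA columns were identical and have no test. The study calls the SLAM-Seq replicates biological, and the labels do not say whether they are separate cultures. The p-values measure the spread between these libraries. Replicate numbers paired the total mRNA libraries, with correlations of same-numbered deviations of 0.40, 0.33 and 0.50 over 6855 genes, the pairing coming from the data alone, and did not pair the rates (0.00, -0.01 and 0.00). One marker gene is not reported here.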

Additional observations from a re-analysis of the deposited data

How the results depend on the processing

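For total mRNA, DMSO with 4sU against no 4sU, the number of members called was 0 under each setting tried, including edgeR, DESeq2, the replicate block (limma 0 of 45, with 210 genes lower, and edgeR with the block 198) and each library left out. The count of all genes lower was 75 with a filter of 10 CPM and 383 by DESeq2, and 71 to 262 with a library left out (79 and 88 without no 4sU replicates 2 and 3, and 97, 87 and 71 without DMSO replicates 1, 2 and 3). Genes higher numbered 2 without a filter, 3 by DESeq2 and 0 to 1 with a library left out. Without each library in turn the members' median ran from -0.23 to 0.07. For the rate, the block gave 26 members, the mean over intervals 24, offsets 27 (0.0001) and 25 (0.002), filters at 1 CPM and on rates above 0 each 22, and leaving out a library 18 to 29, lowest without replicate 2 of no 4sU. The members' median was 0.53 with an offset of 0.002. Genes lower in rate numbered 6 (mean over intervals), 5 (1 CPM), 8 (rates above 0) and 1 to 7 with a library left out. Centred on the library median, 728 genes were higher, 247 lower and 1 member higher, and the members' median was -0.17. Among the members called without centring, 13 changed sign: AURKA (-0.26), AURKB (-0.13), BIRC5 (-0.038), CCNA2 (-0.36), CDCA3 (-0.30), DLGAP5 (-0.17), FOXM1 (-0.28), HMMR (-0.028), NEK2 (-0.29), NUF2 (-0.41), PLK1 (-0.087), PTTG1 (-0.35) and UBE2C (-0.27). Some members not called without centring also changed sign and are not listed. Centring removes the shift that all labelled genes share.

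For IAA against DMSO, no paired analysis was possible because the 3 IAA columns hold 1 set of values. In total mRNA, 6 genes were outside with a pseudocount of 5, 27 without TMM and 13 to 104 with a DMSO library left out, the highest without replicate 1. Against replicates 2 and 3 alone, references added after seeing the data, 253 and 79 genes were outside, with 1 member (KIF20A) against replicate 2, and the members' median against replicate 1 was 0.057. In rate, an offset of 0.002 gave 0 members and 125 genes outside, and single references gave 1014, 1094 and 988 genes. The cause of these differences was not tested. Depth limits the rates of the 6 members under 10 CPM, where a rate of 0 can come from few reads.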
